A study of Mus musculus with 4 samples.

Results

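The α- and β-tubulin isotypes of mouse aortic smooth muscle cells were examined as 10 genes, 4 for α-tubulin (Tuba1a, Tuba1b, Tuba1c and Tuba4a) and 6 for β-tubulin (Tubb2a, Tubb2b, Tubb3, Tubb4b, Tubb5 and Tubb6). They were chosen by name, with earlier results of these data known, as the rows of the deposited table with these symbols. All 10 were among its 39179 genes, and all 10 were among the 15058 genes with a mean of at least 10 normalized counts over the libraries, the genes that were tested. The RNA was labelled as coming from primary smooth muscle cells of the mouse aorta, and markers of other cell types were also detected in it. The knockout group was made of 2 libraries from Sm-Yap/Taz-KO mice, labelled as lacking the transcriptional co-activators YAP and TAZ in smooth muscle, and the wild-type group of 2 libraries from WT mice. Both groups were taken 18 days after tamoxifen. The driver of the deletion, the age of the mice, and whether a library came from 1 animal or from a pool were not given in the sources used here, and the p-values therefore reflect the spread among these libraries alone, which may be technical.

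Microtubules are hollow polymers of heterodimers, each made of an α- and a β-tubulin. Mammals carry several genes for each subunit, and the encoded isotypes differ most in their acidic C-terminal tails, where enzymes add and remove tyrosine, glutamate and glycine and where many microtubule-associated proteins bind. In vascular smooth muscle, microtubules carry cargo, counteract actomyosin tension and form the spindle when cells divide.

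Tails of 7 members are shown first because they are what sets the isotypes apart. Each line is the 3′ end of the coding sequence of the main coding transcript in GENCODE M21 (GRCm38), 48 bases written 5′ to 3′ with the stop codon at the end, and the capitals mark the last codon before the stop.
Tuba1c: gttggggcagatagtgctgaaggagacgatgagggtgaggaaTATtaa
Tuba4a: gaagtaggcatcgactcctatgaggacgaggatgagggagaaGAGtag
Tubb2a: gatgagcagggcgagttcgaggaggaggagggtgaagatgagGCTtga
Tubb2b: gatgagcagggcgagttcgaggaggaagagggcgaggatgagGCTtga
Tubb3: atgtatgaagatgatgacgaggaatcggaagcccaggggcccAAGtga
Tubb4b: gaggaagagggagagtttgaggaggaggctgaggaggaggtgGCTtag
Tubb5: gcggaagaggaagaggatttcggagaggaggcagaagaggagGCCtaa
Tubb2a and Tubb2b differed at 3 of these 48 bases. Tuba1c ends in a codon for tyrosine, the residue that the tubulin tyrosination cycle removes and restores, and Tuba4a ends in one for glutamate. Of the last 15 codons before the stop, between 7 and 10 were for acidic residues in each of these 7 members. Their coding sequences also open alike. Tuba1c begins with atgcgtgagtgc, Tubb3 and Tubb4b begin with atgagggagatc, and Tubb5 begins with atgagggaaatc. These first 4 codons encode the short N-terminal motif that the protein TTC5 recognises on nascent tubulin chains when tubulin mRNA is degraded in response to free dimers.

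The sequences bear on how each gene could be counted, since a read that fits several genes may be left out or shared, and the treatment of such reads was not given in the sources used here. Coding sequences were 85.3% to 98.4% identical between the α members, 80.7% to 96.5% identical between the β members, and 55.2% to 57.9% identical between an α and a β member. Of the 50-base windows along the main transcript, the share found also in a transcript of another annotated gene was 83.1% for Tuba1b, 75.5% for Tuba1a and 61.0% for Tuba1c. It was 55.5% for Tubb4b, 49.6% for Tubb2a and 39.3% for Tubb2b. It was 0.1% for Tubb5, and no window of Tubb3 or Tubb6 was found elsewhere. The α genes of chromosome 15 thus share most of their length, and these 3 β genes next to none. With windows of 100 bases the shares were 73.0% for Tuba1b, 65.8% for Tuba1a, 36.9% for Tubb2a and 30.6% for Tubb4b. The windows of Tuba1a lay most often in Tuba1c, those of Tubb2a in Tubb2b, and those of Tubb4b in the pseudogene Tubb4b-ps1. The 48.8% of Tuba4a came almost wholly from Stk16, an opposite-strand gene that overlaps 37.3% of the exon length of Tuba4a and was at 609 and 549 in knockout libraries and at 567 and 578 in wild-type libraries. Without the strand setting of the counting, reads of these overlapping genes cannot be told apart. A same-strand transcript, Gm49450, overlaps 26.2% of that of Tuba1a and 22.7% of that of Tuba1b. Gm49450 was not found by symbol in the deposited table.

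**Figure D1:**
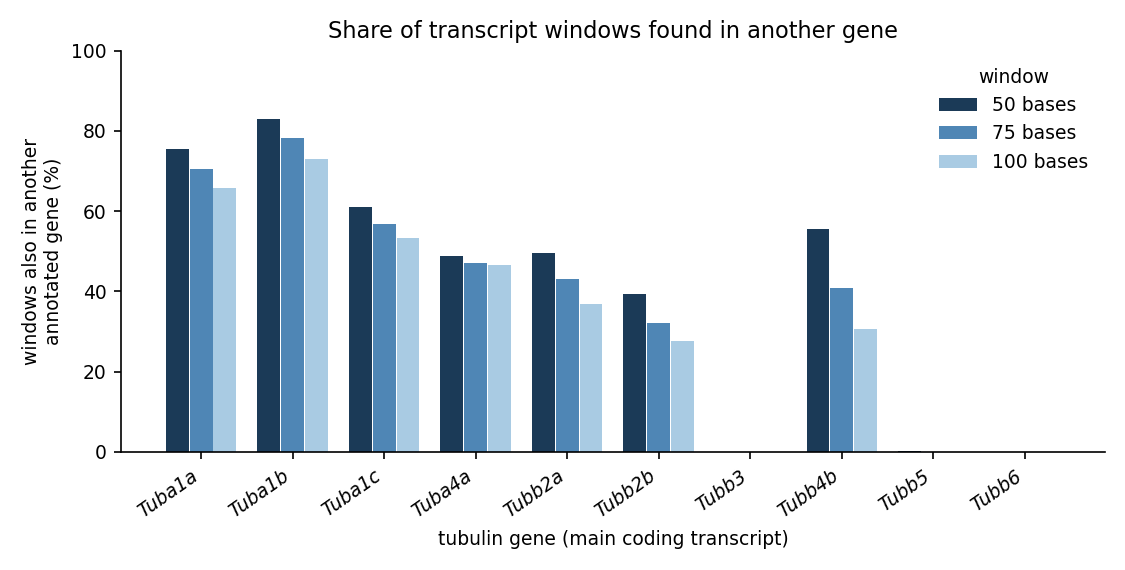
Percentage of the 50-, 75- and 100-base windows of each member's main coding transcript that also occur, on either strand, in a transcript of another annotated gene; genes are on the horizontal axis and shades mark the window length. Tuba1b has the highest share at each length, and Tubb3, Tubb5 and Tubb6 have bars at or next to 0.

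Beside Stk16, 7 of the genes that hold at least 10% of a member's 50-base windows are in the deposited table. For 6 of them fewer than 5 normalized counts were listed in each library, among them Tubb4b-ps1 at 0 and 2 in knockout libraries and at 0 and 0 in wild-type libraries. Gm15599 reached 34.

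No member was called lower in the knockout and several were called higher, while the intervals of Tuba1b, Tuba1c and Tuba4a included 0. Of the 10 members, 5 rose at a limma adjusted p under 0.05 and none fell, where 9.58% of all tested genes were called higher. For 8 members both knockout values lay above both wild-type values and for none below, against 30.7% and 32.1% of all tested genes (62.8% in either direction). Tubb3, among these 8, reached the filter only through its knockout values. The median log2 fold change of the members was 0.80, and that of all tested genes was -0.02. Log2 fold changes compare log2(value + 1), knockout minus wild type, and adjusted p-values are Benjamini-Hochberg values over all tested genes. The calls rested on the test: of the 5, limma called none without the filter on low counts and none without the intensity trend (7 members at an unadjusted p under 0.05 in each), and none when either knockout library or wild-type replicate 1 was left out (6 members at an unadjusted p under 0.05 in each). Without wild-type replicate 2 it called 4.

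**Figure D2:**
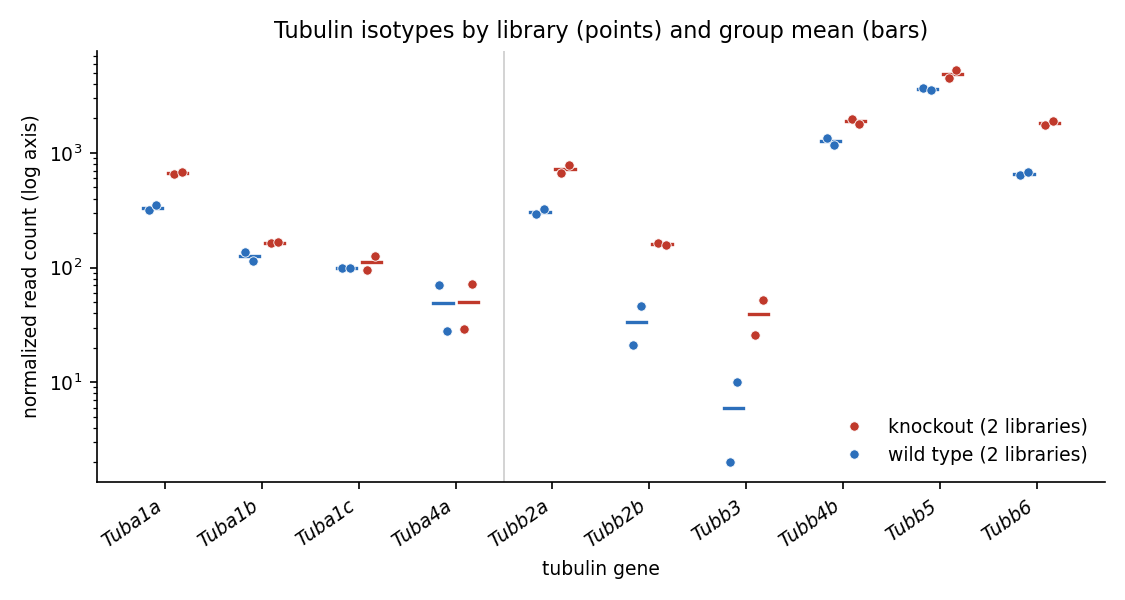
Normalized read count (vertical log axis) of the 10 tubulin genes in each library; red points are the 2 knockout and blue points the 2 wild-type libraries, and the short bars are group means. The knockout points lie above the wild-type points for 8 genes, while those of Tuba1c and Tuba4a overlap.

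Among the β-tubulins, Tubb6 had the smallest p. This isotype is broadly expressed at modest levels and is known for rising in regenerating and dystrophic skeletal muscle. Tubb6 (chromosome 18, 67390717 to 67402749, plus strand, GRCm38) was at 1754 and 1892 normalized counts in knockout libraries and at 640 and 677 in wild-type libraries. The libraries of each group lay close together and the groups were far apart. The means were 1823 ± 97.6 and 658.5 ± 26.2 (SD, n = 2), 2.77-fold apart, and the log2 fold change was 1.47 with an SE of 0.11 (limma adjusted p = 0.0048). Over 13 alternative settings the log2 fold change ran from 1.41 to 1.55. No window of its transcript was found in another gene.

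Tubb2a and Tubb2b, neighbours on chromosome 13 (34074274 to 34078007 and 34126748 to 34130466, both on the minus strand), encode nearly the same protein and are best known from neurons. Tubb2a was at 671 and 779 normalized counts in knockout libraries and at 294 and 323 in wild-type libraries. Both knockout values were more than 2 times either wild-type value (2.35-fold in the means, log2 fold change 1.23, SE 0.14, limma adjusted p = 0.0093). Tubb2b was lower in level, at 163 and 158 in knockout libraries and at 21 and 46 in wild-type libraries. The knockout libraries were close to each other, and wild-type replicate 2 had more than 2 times the value of replicate 1. Tubb2b rose 4.79-fold in the means (log2 fold change 2.33, SE 0.41, limma adjusted p = 0.019), the largest log2 fold change among the members that passed. It ran from 1.78 without wild-type replicate 1 to 2.88 without wild-type replicate 2.

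Tubb4b, a widely expressed isotype that is also found in cilia (chromosome 2, 25222160 to 25224702, minus strand), was at 1975 and 1802 in knockout libraries and at 1348 and 1176 in wild-type libraries. The groups were apart by less than for Tubb6 or Tubb2a. Its log2 fold change was 0.58 (SE 0.12, limma adjusted p = 0.028). Tubb5, the main β-tubulin of most dividing and non-neural cells (chromosome 17, 35833921 to 35838306, minus strand), had the most counts of all members, at 4535 and 5261 in knockout libraries and at 3665 and 3573 in wild-type libraries. The groups did not overlap, but the log2 fold change of 0.43 (SE 0.11, 95% interval 0.16 to 0.71) did not pass, its limma adjusted p being 0.051. The limma adjusted p of Tubb5 was 0.034 after rescaling to the same total, 0.048 with recomputed median-of-ratios factors and 0.030 after quantile normalization. It was 0.0495 with a pseudocount of 5, 0.047 with a filter at a mean of 50 and 0.046 with a replicate block. Tubb5 thus passed in 6 of 13 alternatives. In the other 7 the limma adjusted p was 0.052 with a pseudocount of 0.5, 0.134 without the filter, 0.175 without the intensity trend and 0.153 to 0.264 with 1 library left out.

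Tubb3, the β-tubulin used as a marker of neurons (chromosome 8, 123411424 to 123422015, plus strand), was near the lower end of detection, at 26 and 52 in knockout libraries and at 2 and 10 in wild-type libraries. All knockout values exceeded all wild-type values, and the libraries of each group differed by 2-fold or more. The log2 fold change of 2.72 (SE 0.81, 95% interval 0.74 to 4.70) did not pass (limma adjusted p = 0.072), and it passed in 1 of 12 alternatives, the replicate block (limma adjusted p = 0.028). The log2 fold change of Tubb3 was 1.78 without wild-type replicate 1, 3.66 without wild-type replicate 2, 3.21 without knockout replicate 1, 2.23 without knockout replicate 2, 2.04 with a pseudocount of 5 and 2.15 after quantile normalization. Of 15 neuronal markers listed, 3 reached the mean of 10 needed for the test and limma called none in either direction (0 at an unadjusted p under 0.05). Uchl1 had 182 and 191 normalized counts in knockout libraries against 131 and 148, Stmn2 had 28 and 29 against 18 and 23, and Syt1 had 0 and 26 against 1 and 20. The first 2 of these were higher in both knockout libraries. Named outside the rule as defining neuronal genes, and below the filter, Rbfox3 was at 0 and 1 in knockout libraries and at 2 and 4 in wild-type libraries, and Elavl3 was at 0 and 1 against 2 and 1. The summed neuronal markers were 239 and 283 in knockout libraries and 169 and 248 in wild-type libraries.

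Of the α-tubulins, Tuba1a rose. It is the α isotype of developing neurons and is also made by many other cells (chromosome 15, 98949837 to 98953703, minus strand). Tuba1a was at 655 and 687 normalized counts in knockout libraries and at 315 and 349 in wild-type libraries. The libraries of a group differed little, and the means of 671 ± 22.6 and 332 ± 24.0 (SD, n = 2) were 2.02-fold apart (log2 fold change 1.01, SE 0.13, limma adjusted p = 0.011).

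The other α members did not pass. Tuba1b (chromosome 15, 98931425 to 98934565, minus strand), usually the main α-tubulin of dividing cells, was at 165 and 166 in knockout libraries and at 136 and 114 in wild-type libraries. Its groups did not overlap, with a log2 fold change of 0.41 (SE 0.20, 95% interval -0.09 to 0.91, limma adjusted p = 0.23). Tuba1c (chromosome 15, 99029891 to 99038110, plus strand), a close relative, was at 96 and 126 against 99 and 100. The knockout values lay on both sides of the wild-type ones, and the log2 fold change of 0.14 had a 95% interval from -0.46 to 0.74. Tuba4a, the isotype without the terminal tyrosine (chromosome 1, 75214228 to 75219865, minus strand), was at 29 and 72 against 70 and 28, and its libraries differed as much within a group as between groups (0.04, 95% interval -1.46 to 1.55). The 95% intervals of these 3 genes all include 0.

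**Figure D3:**
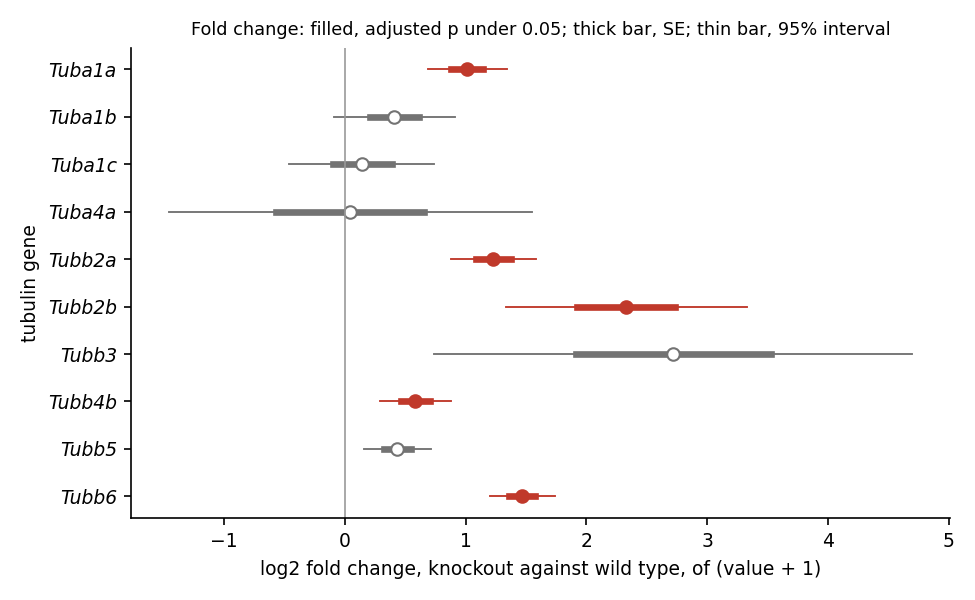
Log2 fold change of each tubulin gene, knockout against wild type, on the log2(value + 1) scale; thick bars are limma standard errors, thin bars 95% intervals, and filled red points passed an adjusted p of 0.05. Tubb6, Tubb2a, Tubb2b, Tuba1a and Tubb4b are filled, and the intervals of Tuba1b, Tuba1c and Tuba4a cross 0.

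Summed over their members, both subunits were higher in the knockout by nearly the same factor. The α members summed to 945 and 1051 normalized counts in knockout libraries and 620 and 591 in wild-type libraries, 1.65-fold in the means. The β members summed to 9124 and 9944 against 5970 and 5805, 1.62-fold. Tubb4a, a β-tubulin outside the members, was left out of the sums, the shares and the order of levels below. It was at 723 and 606 normalized counts in knockout libraries and at 587 and 764 in wild-type libraries. The groups did not overlap for either sum, and the two-sided exact permutation p was 0.333 for each, the smallest that 2 against 2 libraries allow. Per kilobase of exon, the β sum was 7.05 and 6.99 times the α sum in the knockout and 7.12 and 7.0 times in the wild type. When each gene was instead divided by its number of 50-base windows found in no other gene, an alternative chosen after seeing the data, these ratios were 2.95 and 2.87 in knockout libraries and 2.98 and 2.88 in wild-type libraries. On either scale the values of the groups interleaved. The factors and ratios above hold for the members alone. Adding Tubb4a, whose groups overlapped, would raise the β sum by a larger part in wild-type than in knockout libraries. The near-equal factors and the interleaving thus depend on leaving it out.

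Within each pool the composition differed between the groups. Tuba1a made up 72.5% and 70.0% of the α members in knockout libraries and 56.5% and 63.3% in wild-type libraries, as levels per kilobase of exon. The share of Tuba1b was 17.6% and 16.3% against 23.4% and 19.9%, and that of Tuba1c 8.38% and 10.1% against 14.0% and 14.3%. Thus Tuba1a took a larger and Tuba1b and Tuba1c a smaller part of the pool in both knockout libraries. Among the β members, Tubb6 took 20.4% and 20.4% of the pool in knockout libraries and 11.9% and 13.0% in wild-type libraries. Tubb5 took 38.6% and 41.6% against 50.01% and 50.2%, the largest difference in percentage points among the β members. Tubb2a stood at 11.8% and 12.7% against 8.29% and 9.37%, and Tubb4b, at 26.8% and 22.7% against 29.3% and 26.3%, overlapped. Shares sum to 100% in a pool, so a larger share of a member comes with smaller shares of others, and no test was made of them.

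**Figure D4:**
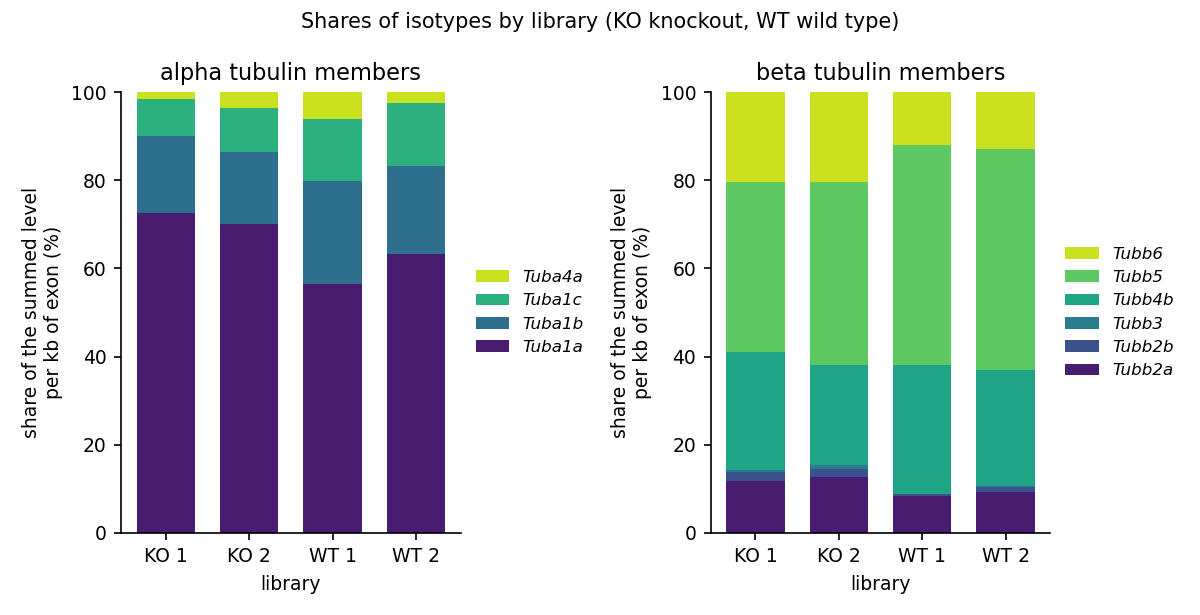
Share of each isotype in the summed level per kilobase of exon of the 4 α members (left) and 6 β members (right) in each library, in percent. Tuba1a takes 70.0% and 72.5% of the α pool in the knockout libraries, and Tubb6 takes 20.4% of the β pool in both, above the wild-type shares of 11.9% and 13.0%.

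The members alone were ordered by level per kilobase of exon, without Tubb4a. Their wild-type order was Tubb5 (1088 normalized counts per kilobase), Tubb4b (604), Tubb6 (270), Tubb2a (192), Tuba1a (184), Tuba1b (66.7), Tuba1c (43.5), Tubb2b (14.6), Tuba4a (13.2) and Tubb3 (3.21). The libraries of Tubb2a and Tuba1a overlapped, as did those of Tubb2b and Tuba4a, and the other neighbours did not. In the knockout the first 6 kept this order, from Tubb5 (1472) to Tuba1b (88.3), and Tubb2b (70.0) stood above Tuba1c (48.5), while Tubb3 (20.9) and Tuba4a (13.6) overlapped. Per 50-base window found in no other gene, Tubb4b came before Tubb5 in both groups, and Tuba1a came after these. The order of the levels depended on which length was used.

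Of the other 10 tubulin genes listed, 6 passed the filter, limma called none in either direction (1, Tubg1, at an unadjusted p under 0.05), and Tuba3b and Tubal3 were at 0 in all libraries. Tubb4a, a β-tubulin of oligodendrocytes and neurons that shares 0.2% of its 50-base windows with another gene, was at 723 and 606 in knockout libraries and at 587 and 764 in wild-type libraries, and its log2 difference was -0.02 (SE 0.17). Tubg1, the γ-tubulin that nucleates microtubules, had 356 and 336 normalized counts against 256 and 223, and its difference of 0.53 on the log2 scale (SE 0.16) gave a limma adjusted p of 0.072. Tubb1, the β-tubulin of platelets, was at 19 and 16 against 0 and 10 and did not pass. Its wild-type mean was 5, and it reached the filter only through the knockout libraries. Tubg2, Tubd1 and Tube1, for another γ-tubulin and for the δ- and ε-tubulins of centrioles, had overlapping groups.

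RefSeq promoters (GRCm38.p6) of 8 members were searched, and 3 are shown. Those of Tubb2b and Tubb6 were not searched. Tubb2a and Tubb4b are called members with the TATA box and the most CCAAT boxes among the 8, and Tubb5 is the one of the 8 with a TEAD core. Each is the 250 bases before the annotated start, 5′ to 3′ on the strand of the gene, and capitals mark matches to the motifs described after them.
Tubb2a (chr13:34078009-34078258, minus strand): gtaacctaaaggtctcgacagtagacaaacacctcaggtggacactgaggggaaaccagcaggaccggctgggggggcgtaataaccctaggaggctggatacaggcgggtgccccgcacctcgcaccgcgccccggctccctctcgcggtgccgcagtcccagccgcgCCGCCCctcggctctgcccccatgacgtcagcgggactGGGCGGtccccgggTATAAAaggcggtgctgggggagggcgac
Tubb4b (chr2:25224703-25224952, minus strand): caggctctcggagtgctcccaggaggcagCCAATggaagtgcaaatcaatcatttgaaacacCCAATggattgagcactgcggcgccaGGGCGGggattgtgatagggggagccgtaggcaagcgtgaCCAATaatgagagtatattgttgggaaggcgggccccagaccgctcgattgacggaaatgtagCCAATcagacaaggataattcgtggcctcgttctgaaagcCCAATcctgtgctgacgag
Tubb5 (chr17:35838302-35838551, minus strand): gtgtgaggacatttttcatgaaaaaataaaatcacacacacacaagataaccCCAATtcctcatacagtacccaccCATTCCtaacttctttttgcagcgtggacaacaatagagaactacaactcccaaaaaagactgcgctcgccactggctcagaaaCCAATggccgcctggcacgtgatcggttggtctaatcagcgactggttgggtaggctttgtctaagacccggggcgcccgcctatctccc
Both strands were searched, and the matches did not overlap each other. GGGCGG, the GC box, was found in 6 of the 8 members (32.7% of 32851 RefSeq promoters of this length), and CCAAT in 5 (33.8% of all). Among the 8, TATAAA was found in Tubb2a alone (12.4% of all). GGAATG, the core of the site of the TEAD factors through which YAP and TAZ act, was found in Tubb5 alone of the 8 (12.6% of all). The AP-1 site TGACTCA (4.46% of all) and the CArG box of serum response factor (1.47% of all) were in none of these windows. Tubb4b held CCAAT 5 times, and no other of the 8 held 1 motif more than 2 times. The median GC content was 59.2% in the 8 members and 52.4% in all promoters.

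Among the genes that fold and modify tubulin 1 passed the test, where 16.3% of all tested genes were called in either direction. Of 21 genes for the cofactors, prefoldin and the chaperonin that fold tubulin, limma called none in either direction (1, Tbcd, at an unadjusted p under 0.05). Their median was -0.02 on the log2 scale, and those with the smallest p were Tbcd (0.35), Tbcel (-0.26) and Pfdn5 (-0.49). Of 19 tested genes for the tyrosine, glutamate and acetyl marks of tubulin and for its autoregulation, 1 fell. This was Ttll7, which encodes a polyglutamylase of β-tubulin, at 1794 and 1374 in knockout libraries and at 3168 and 2522 in wild-type libraries (log2 fold change -0.85, SE 0.18, limma adjusted p = 0.028). Ttc5, named outside the rule because its product recognises the N-terminal motif above, was at 321 and 435 against 384 and 415 and did not pass.

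Among 21 tested microtubule-associated proteins and stathmins, 5 fell and 2 rose, with a median of -0.17. The fallers were Mtus2 (log2 fold change -1.51), which encodes a protein of growing plus ends, its relative Mtus1 (-0.81), Map7d1 (-0.52), Map1b (-0.69) and Map6 (-0.54), a stabiliser of cold-resistant microtubules. The risers were Map2 (1.45), known from dendrites, and Dclk1 (2.15), a kinase with a doublecortin domain. Map1b had the most counts of these 7 genes, at 29376 and 24820 against 43243 and 43907. Of 24 tested genes for plus-end, minus-end and severing proteins, 4 fell and 2 rose. Camsap1 (-0.58), which binds free minus ends, Clasp2 (-0.47), Tacc2 (-0.65) and Clip1 (-0.42), which encodes the plus-end protein CLIP-170, fell. Tacc3 (1.38), which acts on the mitotic spindle, and Fignl1 (2.29) rose. Fignl1 was at 36 and 66 in knockout libraries and at 12 and 7 in wild-type libraries, and reached the filter only through its knockout values. Of 11 genes of the γ-tubulin ring complex and its scaffolds, Pcnt (-0.69), the pericentrin gene, fell and none rose. Of 20 tested motor genes, Kif1a (1.06) and Kif3b (0.60) rose and Kif1c (-0.66) and the dynein light chain gene Dynll1 (-0.65) fell. Map7d1, Map1b, Map6, Dclk1, Tacc2, Fignl1, Clip1 and Kif3b were named after their values were seen. Beside these counts, 6.70% of all tested genes were called lower and 9.58% higher.

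**Figure D5:**
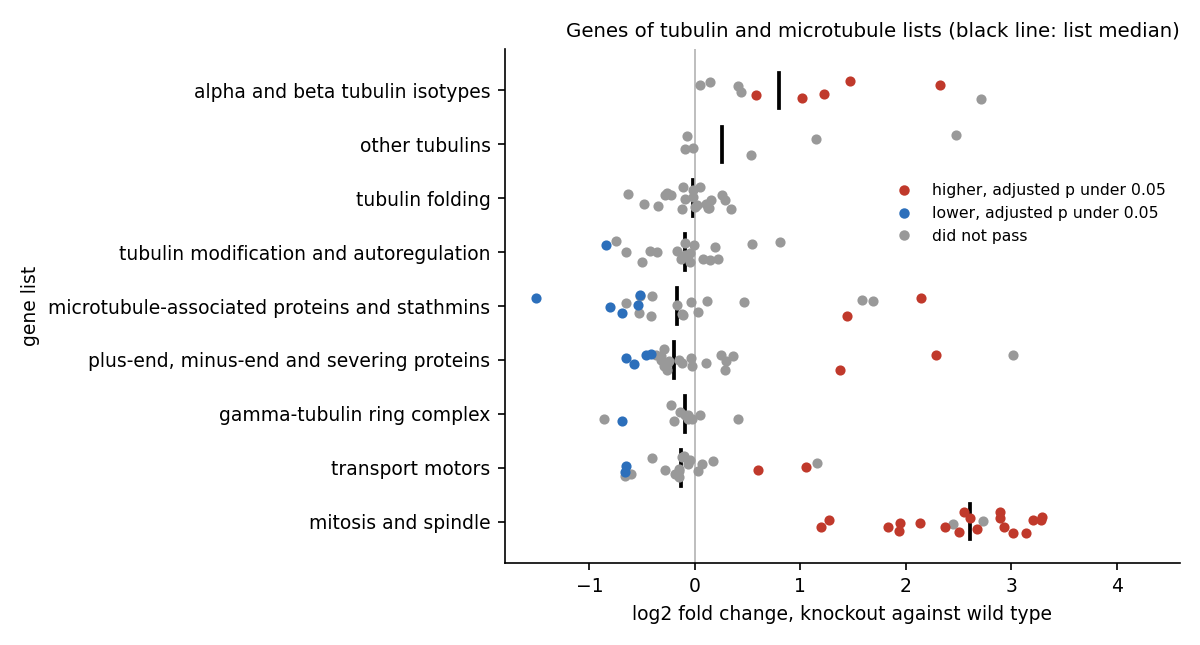
Log2 fold change, knockout against wild type, of each tested gene (points) in the tubulin and microtubule lists, with the list median as a black line; red and blue points passed an adjusted p of 0.05 as higher and lower. The tubulin isotypes have a median of 0.80 and the mitosis and spindle genes one of 2.61, while the medians of the folding, modification, binding, nucleation and motor lists lie between -0.20 and -0.02.

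Mitosis and spindle genes were higher in the knockout too. Of 21 listed, 19 rose and none fell, where 9.58% of all tested genes were called higher. The median of the 21 was 2.61 on the log2 scale. Cdk1, Aurkb and Bub1, among these 19, had wild-type means under 10 and reached the filter only through their knockout values. Cenpe, the kinetochore motor, was at 264 and 457 in knockout libraries and at 28 and 48 in wild-type libraries. Prc1, which bundles microtubules of the central spindle, was at 503 and 724 against 153 and 187. Summed over the list, these genes gave 5810 and 8834 normalized counts in knockout libraries and 831 and 1508 in wild-type libraries. Replicate 2 had the higher sum of this list in both groups. The tubulin members summed to 10069 and 10995 in knockout libraries and to 6590 and 6396 in wild-type libraries. How the sums of these lists relate was not tested.

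Markers of other cell types also moved in the same libraries. Of 15 macrophage markers, C1qc and Adgre1 among them, 14 rose, and their sums were 14026 and 19406 in knockout libraries and 1342 and 3703 in wild-type libraries. Of 12 adipocyte markers 9 rose and 1 fell (20452 and 18673 against 11044 and 11969), of 12 endothelial markers 5 rose (13262 and 11540 against 5012 and 7459), and of 12 fibroblast markers 2 rose (439880 and 434046 against 144447 and 291637). Of Schwann cell markers 9 were tested, with 1 higher and 1 lower (sums of 3483 and 3305 against 2332 and 3146). Of platelet and erythroid markers 5 were tested and 1, Pf4, rose (280 and 358 against 139 and 242). Of lymphocyte markers 2 were tested and none passed (75 and 115 against 20 and 24). Beside these counts, 9.58% of all tested genes were called higher and 6.7% lower. The macrophage markers Fcgr1 and Aif1, the platelet marker Tubb1 and both tested lymphocyte markers, Cd2 and Cd4, reached the filter only through the knockout libraries. No macrophage, adipocyte, endothelial or fibroblast marker listed was at 0 in any library. The smooth muscle markers were abundant in all 4 libraries (sums of 238990 and 184282 against 604642 and 561783), and 10 of 12 fell. In both knockout libraries the fibroblast sums were larger than these. Most of the fibroblast sums came from 3 collagen genes. In knockout libraries Col1a1 was at 128268 and 150818, Col1a2 at 93953 and 89762, and Col3a1 at 137898 and 142256. Every other fibroblast marker was lower in each library. The markers thus do not show that the labelled smooth muscle cells were free of other cells. The part of other cells and of dividing cells in the tubulin values was not tested. In bulk RNA, fewer cells of a type and less RNA per cell cannot be told apart.

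The targeted genes and the depth were as follows. Yap1 was at 947 and 962 normalized counts in knockout libraries and at 1966 and 1877 in wild-type libraries (log2 fold change -1.01), and Wwtr1, the TAZ gene, was at 2848 and 2466 against 3423 and 4016 (-0.48, limma adjusted p = 0.055). The normalized counts per library summed to between 13279332 and 14519178. Over all tested genes, 16.3% were called in either direction.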

How the data were processed

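The data are 1 table of RNA-seq values per gene in 4 libraries. Libraries were built with a strand-keeping kit after ribosomal depletion, per the labels' protocols. STAR 2.5.2b, featureCounts 1.5.1 of Subread, DESeq2 1.14.1 and FastQC, with mm10/GRCm38, are named in the submitters' processing notes, which state no roles. The deposited values are a score: normalized counts that the authors rounded to whole numbers, as the table's name and the whole numbers skipped at regular steps in the knockout columns show. The annotation release, the strand setting and the treatment of multi-mapping reads were not given in the sources used here.

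Because the values are not raw counts, limma 3.58.1 (R 4.3.3) was run on log2(value + 1) with group as the only term and an intensity trend, for genes with a mean of at least 10, with two-sided p-values and Benjamini-Hochberg adjustment over 15058 genes at a threshold of 0.05. The test was tried on simulated data. The members and gene lists were chosen with earlier results of these data known. Named genes are the 10 members, detected other tubulins, Yap1 and Wwtr1, and up to 3 genes of smallest p in each list, with exceptions stated and some left unnamed for length. All listed genes were found in the table by symbol. Exon lengths, positions and transcripts come from GENCODE M21 (GRCm38), and promoters from RefSeq. The coding tails of some members are not reported here. Windows were compared on both strands over all annotated transcripts, not over the genome. No count intervals are given, since read counts behind the values are not in the table. Alternatives changed the pseudocount, filter, scaling, trend, replicate block, length and window, and left out each library in turn.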

Additional observations from a re-analysis of the deposited data

How the results depend on the processing

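Each of the 5 called members kept its direction in all 13 alternative fits. Without the filter on low counts and without the intensity trend, limma called 0 genes higher, 0 lower and 0 members (5472 and 4274 genes had an unadjusted p under 0.05, and the lowest adjusted values were 0.071 and 0.0643), and the cause was not tested. With 1 library left out, and the lone sample of its group assumed to vary like the other group, limma called 0 to 718 genes higher, 0 to 197 lower and 0 to 4 members higher. The summed log2 ratio was 0.72 for the α and 0.69 for the β members. It was 0.78 for the β members after rescaling to the same total and 0.61 for the α members after quantile normalization, which moves the median of all genes to -0.10. Tuba1c and Tuba4a changed sign after quantile normalization (-0.035 and -0.219) and without knockout replicate 2 (-0.051 and -0.597), and Tuba4a also without wild-type replicate 2 (-0.60). Over the refits without 1 library Tuba1c ran from -0.05 to 0.34 and Tuba4a from -0.60 to 0.69.

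The replicate numbers mark no shared animal or day in the labels, and deviations of same-numbered libraries from their group means correlated at 0.118 over genes. With a replicate block limma called 1823 genes higher and 1213 lower, and 7 members higher, Tubb3 and Tubb5 being added. Which groups of shares overlapped was the same per coding length, per main transcript, without length and per unshared window, except that Tubb4b was lower in both knockout libraries per unshared window. Low counts limit Tubb3 and Tuba4a. Of 128 alternative values of the members' log2 fold changes, 90 kept their direction and side of the threshold, 26 lost and 7 gained the threshold, and 5 changed sign. Of 468 alternative counts of called genes in the lists, 338 stayed within 1.5 times the reported count and 130 did not. The count of mitosis genes called higher, 19 as reported, was 14 with the filter at a mean of 50, 0 without the filter or the trend, and 0 to 10 with 1 library left out.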

Other observations

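The 6 actin isoforms, the other main filament of these cells, moved in both directions. Acta2, the smooth muscle α-actin, fell (41201 and 33544 normalized counts in knockout libraries, 157904 and 150117 in wild-type libraries). Actc1 (498 and 475 against 78 and 100), Actg1 (4821 and 4921 against 3527 and 3270) and Actg2 (4918 and 4074 against 2855 and 3035) rose at a limma adjusted p of 0.0053, 0.023 and 0.028. Actb, at 48169 and 44739 against 61551 and 53652, did not pass. Acta1 varied within both groups, at 144 and 8 against 27 and 83.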
